A study of Mus musculus with 12 samples.

Results

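The maintenance DNA methylation machinery was followed here as 8 genes, Dnmt1, Uhrf1, Uhrf2, Usp7, Hells, Cdca7, Lig1 and Pcna. They were chosen by their known function at the replication fork, with earlier results of these data known. All 8 passed the filter on low counts that kept 16627 of the 26742 genes in the count table. RNA sequencing libraries were made from mouse embryonic stem (ES) cells, labelled male, of 2 genetic backgrounds, 129 and B6J. All cells grew in serum with LIF, the cytokine that holds ES cells in self-renewal. In each background cells received either DMSO, the solvent, or 1 µM PD 0325901, a small-molecule inhibitor of the kinase MEK (iMEK in the plots), renewed daily, and were harvested on day 5. Each of the 4 groups, 129 with DMSO, 129 with inhibitor, B6J with DMSO and B6J with inhibitor, held 3 libraries. The labels name no ES cell line or clone and do not say that the replicates were separate cultures. The p-values below therefore rest on spread that may be technical. Background and cell line cannot be told apart.

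DNA methylation at CG dinucleotides is copied at each cell division, because the new strand leaves the replication fork without it. UHRF1 binds hemimethylated DNA and ubiquitinates histone H3 and the clamp-associated factor PAF15, and DNMT1 is recruited to these marks and methylates the new strand. USP7 removes ubiquitin from its targets, HELLS with CDCA7 opens nucleosomal DNA to the machinery, and PCNA and DNA ligase 1 tie the reaction to Okazaki fragment joining. Mouse ES cells kept with a MEK inhibitor are known to lose much of their DNA methylation, which was not measured in these libraries. Transcript levels do not give protein levels, and UHRF1 is known to be regulated at the protein level as well.

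The genes lie on 6 chromosomes of GRCm38 (GENCODE M21 annotation). Dnmt1 spans chr9:20907209-20959888 on the minus strand, Uhrf1 chr17:56303321-56323486 on the plus strand, Uhrf2 chr19:30030513-30093722 on the plus strand and Usp7 chr16:8689595-8792308 on the minus strand. Hells lies at chr19:38930915-38971051 (plus), Cdca7 at chr2:72476159-72486893 (plus), Lig1 at chr7:13277283-13311433 (plus) and Pcna at chr2:132249162-132253314 (minus). RefSeq gives 13 windows of 250 bases upstream of the annotated starts of these 8 genes (GRCm38.p6). Stretches of 3 of them that hold no annotated exon are printed because Uhrf1 and Uhrf2 showed the largest changes with the inhibitor and Cdca7 differed between the backgrounds. The sequences are those of the reference genome. Each reads 5′ to 3′ on the strand of its gene, with capitals marking E2F and CCAAT letters.
Uhrf1, chr17:56304063-56304312, plus strand: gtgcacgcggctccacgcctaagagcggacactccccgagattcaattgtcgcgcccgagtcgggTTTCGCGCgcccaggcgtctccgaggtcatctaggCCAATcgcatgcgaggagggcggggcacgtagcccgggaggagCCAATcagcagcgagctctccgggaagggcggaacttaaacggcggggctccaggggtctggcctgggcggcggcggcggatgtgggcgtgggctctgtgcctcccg
Uhrf2, chr19:30030263-30030512, plus strand: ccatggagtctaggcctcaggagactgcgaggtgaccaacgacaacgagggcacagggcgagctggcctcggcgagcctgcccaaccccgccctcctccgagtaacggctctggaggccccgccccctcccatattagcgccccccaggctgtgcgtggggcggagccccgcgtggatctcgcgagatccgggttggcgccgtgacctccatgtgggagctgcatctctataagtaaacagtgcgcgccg
Cdca7, chr2:72475969-72476158, plus strand: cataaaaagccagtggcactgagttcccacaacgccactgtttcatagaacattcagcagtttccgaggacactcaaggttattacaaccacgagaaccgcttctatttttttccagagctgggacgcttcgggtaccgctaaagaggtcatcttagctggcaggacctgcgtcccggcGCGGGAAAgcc

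The Uhrf1 window belongs to the second of its RefSeq starts and holds 1 E2F match, 2 CCAAT matches and 30 CpG dinucleotides in 250 bases. The Uhrf2 window holds neither an E2F nor a CCAAT match and has 23 CpG. Both counts lie above the median of 6 CpG per window over 32841 RefSeq windows of the same length. The letters searched on both strands for E2F were TTTCCCGC, TTTCGCGC, TTTGCCGC and TTTGGCGC, none of which overlaps CCAAT. Of the 13 windows 4 held an E2F match, 1 each for Uhrf1, Dnmt1, Hells and Cdca7, against 1.86% of all windows. In their full 250 bases these windows held 30, 26, 28 and 21 CpG, and only 27.3% of all windows held 15 or more. Each E2F word contains a CG, and the shares of all windows given here are not matched for CpG. Some members also have several windows, so the 13 are not independent. The Cdca7 match reads as the reverse complement of TTTCCCGC. CCAAT was found in 6 of the 13 windows (33.9% of all windows), the GC box GGGCGG in 9 of 13 (32.7%) and the ETS letters CCGGAAGT in 0 of 13 (2.88%). A match is a run of letters and not a measured binding site.

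The 12 libraries held 62634533 to 96341637 counts. Of the 8 ERK target genes listed, which MEK inhibition is known to lower, 7 fell in each background, among them Dusp6, from 91.6 ± 10 to 26.7 ± 0.726 CPM (counts scaled to library size; mean ± SD, n = 3) in 129 and from 113 ± 6.27 to 40.2 ± 1.34 CPM in B6J. All 10 ES cell markers were detected in every library. They summed to 3519 to 4873 CPM in 129 with DMSO and 5599 to 5822 CPM with inhibitor, and to 4455 to 5132 and 5314 to 5774 CPM in B6J, and 6 of the 10 rose in 129 while 5 rose and 1 fell in B6J. The 20 fibroblast markers, none of which was at 0 in any library, summed to 3113 to 6093 CPM in 129 with DMSO and 7370 to 11662 CPM with inhibitor, and to 4660 to 5526 and 7033 to 11505 CPM in B6J. Of the 20, 16 rose with the inhibitor in 129 and 12 in B6J. The sums with DMSO and with inhibitor did not overlap in either background. Responses fitted below with these markers as a covariate therefore cannot separate the marker level from the inhibitor. The 10 primitive endoderm markers summed to 8589 CPM in replicate 1 of 129 with DMSO, against 740 and 741 CPM in the other 2 libraries of that group. The 129 libraries with inhibitor summed to 1597, 1024 and 1029 CPM, so only replicate 1 with DMSO lay above them. Of the 10, 6 were called lower with the inhibitor in 129, in a comparison that includes this library. In B6J edgeR called 0 of these 10 lower (1 at an unadjusted p under 0.05, 1 by DESeq2 and 0 by limma-voom). Beside the counts of the marker and target lists above, 17.4% of all genes tested rose and 18.2% fell in 129, and 14.6% rose and 16.5% fell in B6J. In 4 libraries, replicate 1 of both 129 groups, replicate 1 of B6J with DMSO and replicate 3 of B6J with inhibitor, counts differed more from the rest of their group (chi-square per degree of freedom 42.1 to 175) than the remaining 2 libraries of each group differed from each other (6.91 to 26.3). The part of these cell-type markers in the results was not tested, nor was that of these libraries, except where a value without a library is given. In bulk RNA, fewer cells of a type and less RNA per cell cannot be told apart.

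Scaled by the union length of their exons, Pcna and Uhrf1 were the most abundant transcripts of the machinery and Uhrf2 by far the least. Pcna stood at 105 ± 6.51 CPM per kilobase in 129 with DMSO and 146 ± 7.14 in B6J with inhibitor. Uhrf1 ran from 85.5 ± 2.63 to 149 ± 2.7 CPM per kilobase in the same 2 groups, so that its lowest group lay below Pcna and its highest beside it. Lig1 (73.7 to 88.4), Usp7 (68.5 to 85.3), Cdca7 (54.9 to 73.2), Dnmt1 (52.2 to 62) and Hells (40.1 to 50.2 CPM per kilobase, group means) followed. Over the 12 libraries, the ranges of neighbours in this order overlapped. Uhrf2 had 5.53 to 9.44 CPM per kilobase, below every library of every other member. With the length of the longest annotated transcript instead, Uhrf2 had 13.4 to 22.9 CPM per kilobase and was still the lowest, and Pcna the highest. On that scale Usp7 stood above Uhrf1 with DMSO, at 112 ± 8.09 against 102 ± 3.13 CPM per kilobase in 129 and 124 ± 1.64 against 116 ± 10.3 in B6J, and above Lig1 in all 4 groups.

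**Figure D1:**
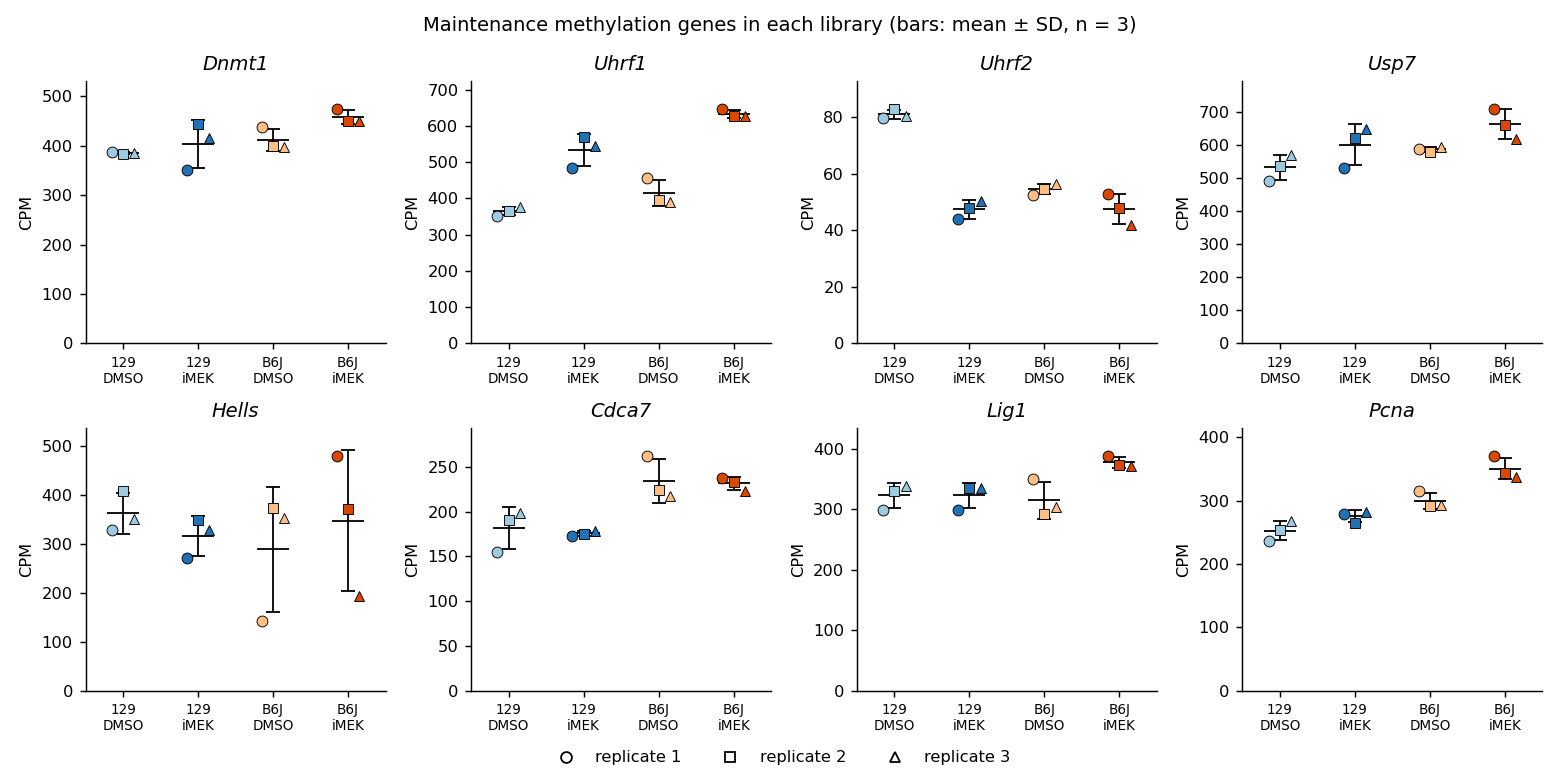
Level of each of the 8 genes in CPM (vertical axes, starting at 0) in the 12 libraries, by group, with marker shape giving the replicate number and bars the mean ± SD of 3 libraries. Uhrf1 was higher with the inhibitor in both backgrounds, Uhrf2 was highest in 129 with DMSO (79.7 to 82.9 CPM), and Hells was low in 1 library of each B6J group.

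Dnmt1, the maintenance methyltransferase, passed the test in no comparison. It had 387.5, 383.0 and 385.7 CPM in replicates 1, 2 and 3 of 129 with DMSO and 350.3, 444.8 and 415.6 CPM with inhibitor. B6J libraries had 437.0, 399.1 and 398.4 CPM with DMSO and 474.0, 449.1 and 449.1 CPM with inhibitor. In 129 the inhibitor libraries lay on both sides of the tight DMSO group, and in B6J all 3 inhibitor libraries lay above the DMSO libraries. The log2 fold change, inhibitor over DMSO, was 0.07 in 129 (95% interval -0.11 to 0.24, adjusted p = 0.553) and 0.15 in B6J (-0.03 to 0.33, adjusted p = 0.183). With the mean level of the fibroblast markers as a covariate the values were 0.22 (adjusted p = 0.192) and 0.27 (adjusted p = 0.0651). Neither was called in either fit, where a call is an adjusted p under 0.05 in the edgeR quasi-likelihood test over all 16627 genes. Both calls turned on 1 library: without replicate 1 of 129 with inhibitor, Dnmt1 was called higher in 129 (0.17, adjusted p = 0.0372) and, at 0.17, in B6J as well (adjusted p = 0.0206), where all groups enter 1 fit. B6J libraries lay above 129 libraries in both media, by 0.09 on the log2 scale with DMSO (adjusted p = 0.464) and 0.18 with inhibitor (adjusted p = 0.160), and neither difference was called.

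Uhrf1, which reads hemimethylated DNA and brings DNMT1 to it, rose with the MEK inhibitor in both backgrounds. In 129 it had 352.9, 364.7 and 375.3 CPM with DMSO and 484.8, 568.8 and 545.8 CPM with inhibitor. In B6J it had 457.2, 396.7 and 390.5 CPM with DMSO and 646.3, 626.4 and 626.3 CPM with inhibitor. No inhibitor library of either background reached down to a DMSO library of the same background. The rise was 1.46-fold in 129 (log2 0.55, SE 0.077, adjusted p = 0.000252) and 1.53-fold in B6J (log2 0.61, SE 0.077, adjusted p = 0.000124). The difference between the 2 responses, 0.06 (95% interval -0.18 to 0.30, adjusted p = 0.872), was not called. B6J also held more Uhrf1 than 129 with inhibitor, 633 ± 11.5 against 533 ± 43.4 CPM (log2 0.25, adjusted p = 0.0440), a call lost in 11 of 25 alternative analyses (adjusted p up to 0.0924). Among these were the omissions of replicate 1 or 3 of 129 with inhibitor, replicate 2 or 3 of 129 with DMSO, replicate 2 of B6J with DMSO and each library of B6J with inhibitor. With DMSO the background difference was 0.19 (adjusted p = 0.111), although no libraries overlapped.

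Uhrf2, the paralogue of UHRF1 that does not take over its role in maintenance in ES cells, fell with the inhibitor in 129. Its level was 79.7, 82.9 and 80.6 CPM with DMSO and 44.0, 48.0 and 50.5 CPM with inhibitor. B6J libraries began lower, at 52.6, 54.8 and 56.3 CPM with DMSO, and had 52.8, 48.0 and 42.0 CPM with inhibitor. The 129 groups were far apart, while replicate 1 of B6J with inhibitor lay inside the range of B6J with DMSO. The log2 fold change was -0.77 in 129 (SE 0.087, adjusted p = 5.56e-05) and -0.20 in B6J (95% interval -0.39 to -0.01, adjusted p = 0.108, not called). With the fibroblast covariate the B6J value was -0.06 (adjusted p = 0.710). Between backgrounds, Uhrf2 was lower in B6J with DMSO by a log2 value of -0.57 (SE 0.087, adjusted p = 0.000769), and with inhibitor the groups stood at 47.5 ± 3.30 CPM in 129 and 47.6 ± 5.42 CPM in B6J (log2 0.0037, 95% interval -0.19 to 0.19). The difference between the 2 responses, B6J minus 129, was 0.57 (SE 0.12, 95% interval 0.31 to 0.84, adjusted p = 0.0450). That call was lost in 15 of 24 alternatives, with adjusted p from 0.00139 to 0.127 and values from 0.51 to 0.66, including the omission of any of 10 single libraries. Leaving out replicate 1 of 129 with DMSO or replicate 3 of B6J with inhibitor kept it.

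**Figure D2:**
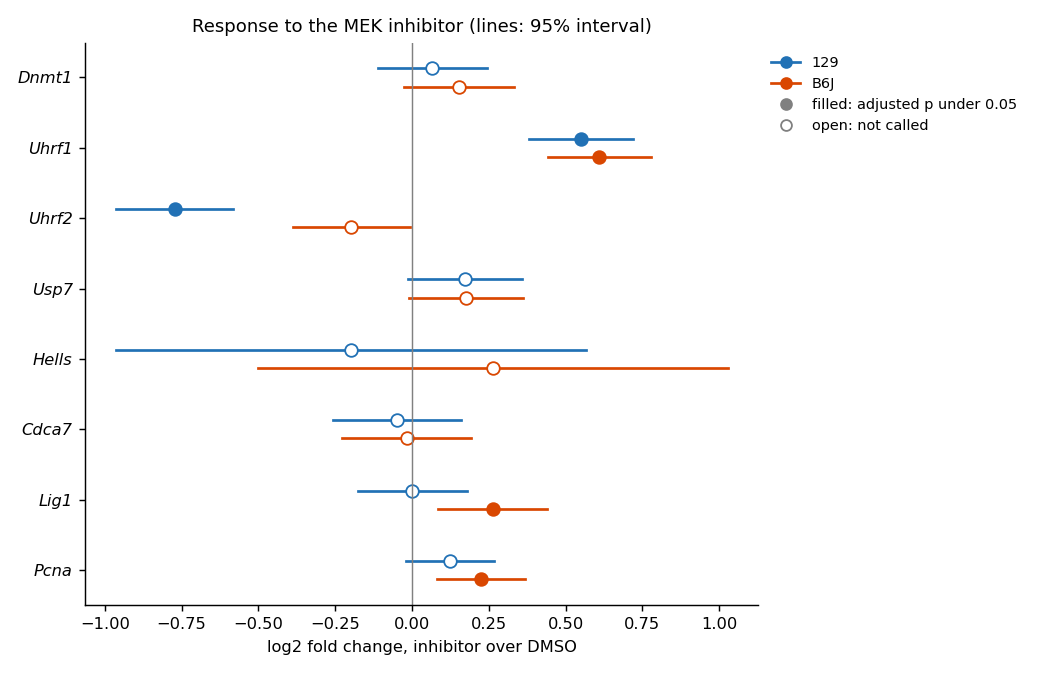
Log2 fold change of each gene, inhibitor over DMSO (horizontal axis), in 129 (blue) and B6J (orange), with 95% intervals from the edgeR fit and filled points where the adjusted p was under 0.05. Uhrf1 lies to the right in both backgrounds (0.55 and 0.61), Uhrf2 lies to the left in 129 (-0.77), and the intervals of Hells are the widest.

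Usp7, a deubiquitinase that binds DNMT1 and UHRF1, did not pass the test in any comparison. It had 492.1, 536.4 and 568.5 CPM in 129 with DMSO and 530.8, 620.7 and 648.9 CPM with inhibitor. In B6J it had 585.9, 578.8 and 594.3 CPM with DMSO and 707.8, 660.7 and 618.7 CPM with inhibitor, where the groups did not overlap. The log2 fold changes were 0.17 in 129 (95% interval -0.01 to 0.36, adjusted p = 0.133) and 0.18 in B6J (-0.01 to 0.36, adjusted p = 0.141). With the fibroblast covariate, which itself rose with the inhibitor, they were 0.46 (adjusted p = 0.00335) and 0.39 (adjusted p = 0.00299), both called. Without replicate 1 of 129 with inhibitor the 129 value was 0.26 (adjusted p = 0.0222).

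Hells, the nucleosome remodeller whose loss leaves DNA undermethylated, varied more between the B6J libraries of a group than any other member. It had 327.8, 407.6 and 349.5 CPM in 129 with DMSO and 269.8, 347.6 and 327.6 CPM with inhibitor. In B6J it had 142.0, 372.4 and 351.9 CPM with DMSO and 478.2, 369.9 and 192.1 CPM with inhibitor. The lowest library of each B6J group is the one whose counts as a whole stood apart from its group. The log2 fold changes were -0.20 in 129 (95% interval -0.96 to 0.57, adjusted p = 0.684) and 0.26 in B6J (-0.50 to 1.03, adjusted p = 0.615), and no direction can be read from either interval. With the fibroblast covariate they were 0.27 and 0.58, neither called. In B6J the value was -0.07 without replicate 1 of the DMSO group and 0.55 without replicate 3 of the inhibitor group. With libraries of the same number treated as pairs, a pairing read from these data, Hells was called lower in a fit of the 129 groups alone (-0.21, adjusted p = 0.0478). Replicate 1 was the lowest in both 129 groups and replicate 2 the highest.

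The 3 genes whose profile over the 12 libraries lay closest to that of Hells, among 9841 genes, were Zfp955a, a zinc finger gene, Smarca5, which encodes the ISWI remodeller SNF2H, and Ube2v2, a ubiquitin-conjugating enzyme variant. Their root mean square differences from Hells were 0.08, 0.11 and 0.12 on the log2 scale, against a standard deviation of 0.48 for Hells itself. Smarca5 had 97.4, 232 and 225 CPM in B6J with DMSO and 281, 212 and 133 CPM with inhibitor, low in the same libraries as Hells. Dnmt1 was not low in these libraries (437.0 and 449.1 CPM).

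**Figure D3:**
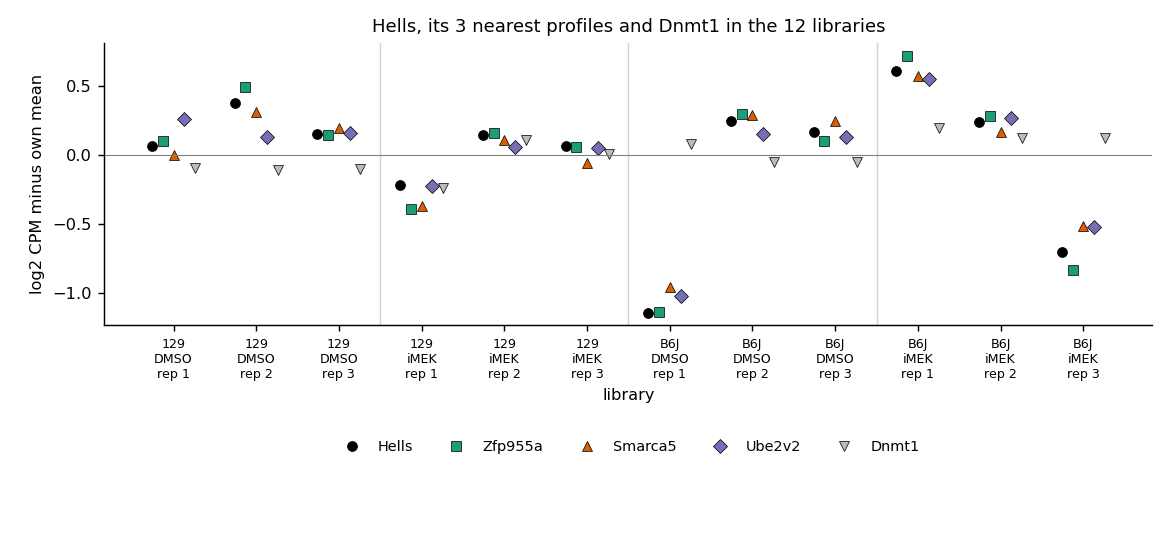
Log2 CPM minus the gene's own mean (vertical axis) for Hells, its 3 nearest profiles and, for contrast, Dnmt1 in each of the 12 libraries (horizontal axis). Hells, Zfp955a, Smarca5 and Ube2v2 were all low in replicate 1 of B6J with DMSO and replicate 3 of B6J with inhibitor, where Dnmt1 was not.

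Cdca7, the zinc finger partner that HELLS needs to remodel nucleosomes, did not pass the test for the inhibitor and differed between the backgrounds. It had 155.4, 191.3 and 198.9 CPM in 129 with DMSO and 172.9, 175.6 and 178.8 CPM with inhibitor. In B6J it had 262.1, 224.3 and 217.1 CPM with DMSO and 237.8, 233.4 and 223.7 CPM with inhibitor, so that every B6J library lay above every 129 library. The responses were -0.05 in 129 (95% interval -0.26 to 0.16) and -0.02 in B6J (-0.23 to 0.19). B6J exceeded 129 by 0.37 with DMSO (1.29-fold, adjusted p = 0.0183) and 0.40 with inhibitor (1.32-fold, adjusted p = 0.0126). The call with inhibitor held in 25 of 25 alternatives, all of which start from the same alignment and counts. On omission of DMSO replicate 1 of B6J the DMSO difference was 0.28 and no longer called (adjusted p = 0.0703).

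Lig1, which seals Okazaki fragments and whose methylated form is a docking site for UHRF1, rose with the inhibitor in B6J. It had 349.0, 291.5 and 302.6 CPM in B6J with DMSO and 387.3, 372.4 and 371.8 CPM with inhibitor, without overlap (log2 0.26, SE 0.081, adjusted p = 0.0284). That call was lost without DMSO replicate 2 (0.21, adjusted p = 0.111) or DMSO replicate 3 (0.24, adjusted p = 0.0982) of B6J, and the value was 0.45 with the fibroblast covariate. In 129 it had 298.8, 330.6 and 337.9 CPM with DMSO and 298.7, 334.3 and 335.0 CPM with inhibitor, nearly the same values (log2 0.00088, 95% interval -0.18 to 0.18). With the fibroblast covariate the 129 value was 0.24 (adjusted p = 0.0897). The difference between the 2 responses, 0.26 (95% interval 0.01 to 0.51, adjusted p = 0.362), was not called. Between backgrounds, Lig1 differed by -0.04 with DMSO (adjusted p = 0.797) and by 0.23 with inhibitor (adjusted p = 0.0776). The latter was called in 6 of 25 alternatives, among them DESeq2 (adjusted p = 0.0486), the fibroblast covariate (0.24, adjusted p = 0.0100) and the omission of DMSO replicate 1 of 129 (adjusted p = 0.0493) or of B6J (adjusted p = 0.0448). Lig1 overlaps Zswim9 on the opposite strand, and the strand setting of the counting is not given in the sources used here. Zswim9 had group means of 6.11 to 10.4 CPM, small beside Lig1.

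Pcna, the sliding clamp on which DNMT1, UHRF1 and LIG1 meet the fork, rose with the inhibitor in B6J. It had 314.5, 291.9 and 293.4 CPM in B6J with DMSO and 370.2, 343.7 and 338.2 CPM with inhibitor (log2 0.23, SE 0.066, adjusted p = 0.0221), without overlap. The same 2 omissions ended this call, with 0.21 (adjusted p = 0.0773) without DMSO replicate 2 and 0.21 (adjusted p = 0.0769) without DMSO replicate 3 of B6J. In 129 it had 237.0, 253.0 and 268.2 CPM with DMSO and 279.0, 264.7 and 282.5 CPM with inhibitor, where replicate 2 with inhibitor fell inside the DMSO range (log2 0.12, 95% interval -0.02 to 0.27, adjusted p = 0.165). In the main edgeR fit the 2 responses of Pcna differed by 0.10 (B6J minus 129, adjusted p = 0.714), which was not called. With the fibroblast covariate the responses were 0.27 in 129 (adjusted p = 0.0525) and 0.33 in B6J (adjusted p = 0.00815). B6J exceeded 129 in both media, by 0.25 with DMSO (adjusted p = 0.0201) and 0.35 with inhibitor (adjusted p = 0.00322). The DMSO call ended on omission of DMSO replicate 2 of 129 (adjusted p = 0.0576) or DMSO replicate 1 of B6J (adjusted p = 0.0586).

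The background difference of Pcna cannot be read apart from a processed pseudogene. Pcna-ps2, a single exon of 781 bases at chr19:9283380-9284160 on the plus strand, had 49.6, 51.6 and 58.4 CPM in 129 with DMSO and 58.4, 52.9 and 60.5 CPM with inhibitor. B6J libraries had only 2.44, 2.35 and 2.40 CPM with DMSO and 2.95, 2.46 and 2.47 CPM with inhibitor. The log2 difference, B6J over 129, was -4.47 with DMSO (adjusted p = 7.84e-10) and -4.45 with inhibitor (adjusted p = 7.88e-10). With the counts of Pcna and Pcna-ps2 summed, B6J and 129 differed by -0.02 with DMSO (95% interval -0.16 to 0.13, adjusted p = 0.893) and 0.09 with inhibitor (-0.06 to 0.23, adjusted p = 0.442), and neither was called. How reads were shared between Pcna and this pseudogene is not given in the sources used here, so the level of either gene is uncertain. Their sequences were not compared. The response of the sum to the inhibitor in B6J was 0.22 (adjusted p = 0.0250), as for Pcna alone.

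**Figure D4:**
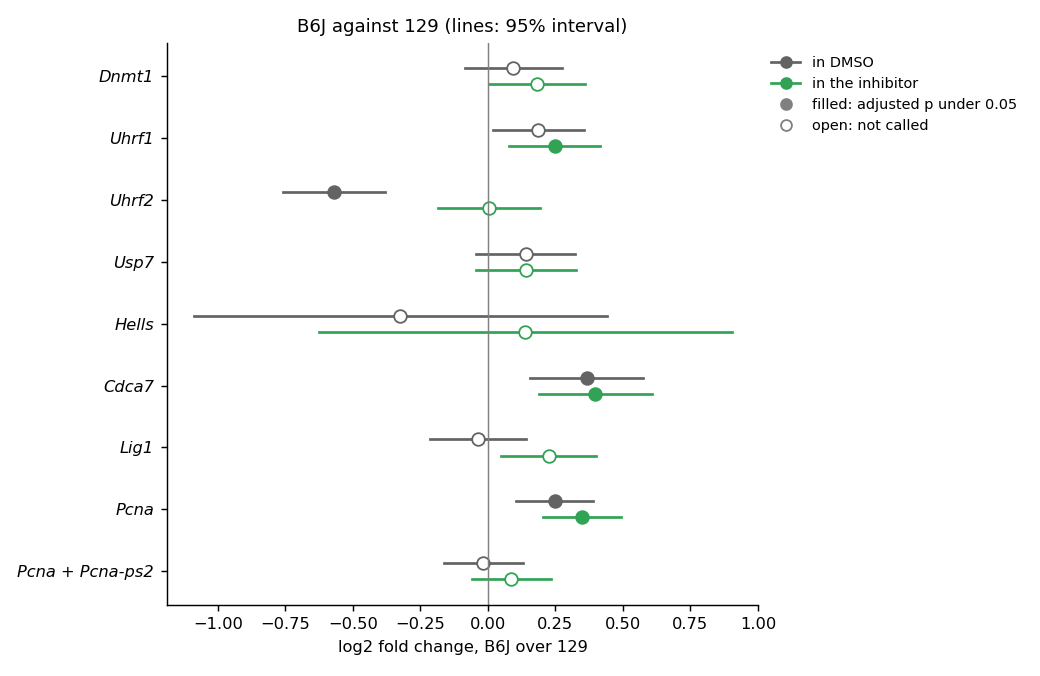
Log2 fold change of each gene, B6J over 129 (horizontal axis), with DMSO (grey) and with inhibitor (green), with 95% intervals from the edgeR fit and filled points where the adjusted p was under 0.05. Uhrf2 is lower in B6J with DMSO and near 0 with inhibitor, Cdca7 is higher in both media, and the difference of Pcna is near 0 once Pcna-ps2 is added.

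Counted over the 8 genes, most members passed no test in a given comparison. In 129, 1 of the 8 genes rose (Uhrf1) and 1 fell (Uhrf2), against 17.4% and 18.2% of all genes tested (35.7% in either direction), and 2 of 8 did not overlap between the groups, against 47.4% of all genes. In B6J, 3 of 8 rose (Uhrf1, Lig1 and Pcna), against 14.6% of all genes (31.1% in either direction), and 5 of 8 did not overlap, against 50% of all genes. The edgeR test called 0 of 8 lower in B6J, against 16.5% of all genes, with 1 at an unadjusted p under 0.05 (Uhrf2) and 0 by DESeq2 or limma-voom. The median log2 fold change of the 8 was 0.03 in 129 and 0.20 in B6J, beside -0.01 and 0.0023 over all genes. The 2 responses differed for 1 of 8, Uhrf2, whose difference was on the higher side, against 1.48% of all genes in either direction, 0.71% higher and 0.77% lower. Between backgrounds with DMSO, 2 were higher in B6J (Cdca7 and Pcna) and 1 lower (Uhrf2), against 10.4% of all genes higher, 10.5% lower and 20.9% in either direction, and 6 of 8 did not overlap, against 36.9%. With inhibitor, 3 were higher (Uhrf1, Cdca7 and Pcna), against 8.9% of all genes higher and 18.4% in either direction, and 5 of 8 did not overlap, against 38.5%. Pcna was not called in either medium once Pcna-ps2 was added, and the Uhrf1 call was lost in 11 of 25 alternatives. The edgeR test called 0 of 8 lower in B6J with inhibitor, against 9.47% of all genes, with 0 at an unadjusted p under 0.05 and 0 by DESeq2 or limma-voom. Each response shares a group of libraries with each background difference, so these counts are not independent.

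Ratios of counts within a library do not depend on library scaling. Uhrf1 counts per Dnmt1 count were 0.945 ± 0.0317 in 129 with DMSO and 1.33 ± 0.0536 with inhibitor, and 1.01 ± 0.0349 and 1.38 ± 0.0180 in B6J (mean ± SD, n = 3). All 6 inhibitor libraries, at 1.28 to 1.39, lay above all 6 DMSO libraries, at 0.911 to 1.05. The log2 differences, 0.49 in 129 and 0.46 in B6J, each gave p = 0.1 in a two-sided exact permutation test, the smallest that 3 against 3 libraries allow (0.178 after adjustment over 16 ratio tests). Uhrf1 counts per Uhrf2 count went from 4.49 ± 0.140 to 11.2 ± 0.552 in 129 and from 7.62 ± 0.934 to 13.4 ± 1.38 in B6J, again without overlap (exact p = 0.1 each). The ratio of Hells to Cdca7 ranged from 0.542 to 2.13 over the 12 libraries, and its inhibitor groups overlapped the DMSO groups in both backgrounds (exact p = 0.3 and 0.7). Lig1 per Pcna was 1.28 ± 0.0267, 1.17 ± 0.0969, 1.05 ± 0.0570 and 1.08 ± 0.0275 in 129 with DMSO, 129 with inhibitor, B6J with DMSO and B6J with inhibitor. Counts of Pcna-ps2 are left out of this ratio, so its difference between the backgrounds cannot be read, as for Pcna itself.

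**Figure D5:**
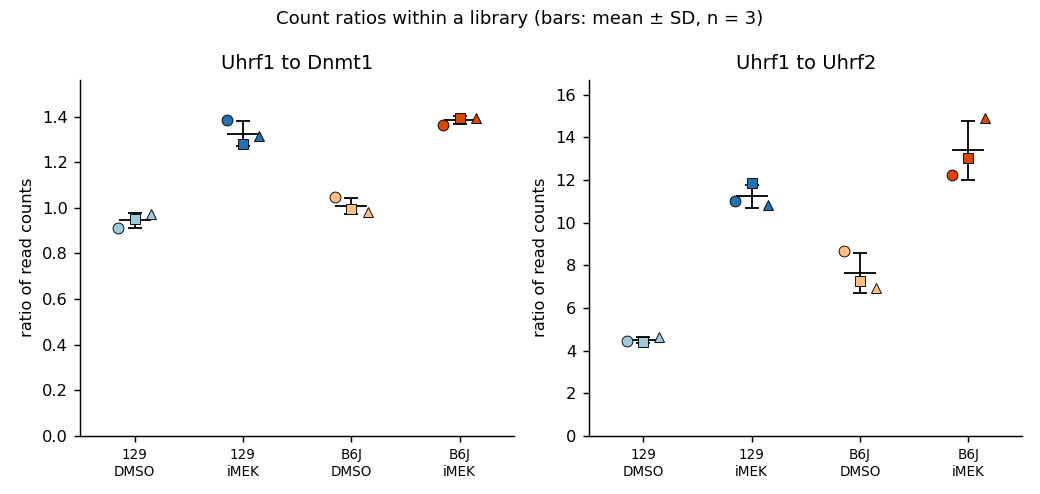
Counts of Uhrf1 per count of Dnmt1 and per count of Uhrf2 (vertical axes, starting at 0) in the 12 libraries, by group, with bars for the mean ± SD of 3 libraries. In both backgrounds the inhibitor libraries lie above the DMSO libraries for both ratios.

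Over the 12 libraries, the 2 pairs of members with the most alike profiles were Dnmt1 with Lig1 and Dnmt1 with Usp7, each with a root mean square difference of 0.080 on the log2 scale, and the least alike pair was Uhrf1 with Uhrf2, at 0.61. The gene nearest to Uhrf1 was Chtf18, a subunit of an alternative PCNA loader (0.07), followed by Rpap1 and Usp48. Phkb, a phosphorylase kinase subunit, was nearest to Uhrf2 (0.09), followed by Itch, a ubiquitin ligase, and Pigw. Dnmt1 lay closest to Tln2 (0.04), Usp7 to Trim71, Cdca7 to Cdca5, Lig1 to Ift140 and Pcna to Rhbdd2. Likeness over 12 libraries that fall into 4 groups is a description of these libraries.

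Among 15 partners and regulators of DNMT1 and UHRF1, 3 rose and 5 fell in 129, and 3 rose and 7 fell in B6J. For these and the lists that follow, the shares of all genes tested were 17.4% higher and 18.2% lower in 129 and 14.6% and 16.5% in B6J. Pclaf, which encodes PAF15, the clamp factor that UHRF1 ubiquitinates, fell from 69.3 ± 8.69 to 37.3 ± 0.775 CPM in 129 (log2 -0.89, adjusted p = 4.40e-05) and from 96.1 ± 3.94 to 39.1 ± 3.68 CPM in B6J (-1.30, adjusted p = 3.92e-06). Setd7, a lysine methyltransferase that can act on DNMT1, fell from 102 ± 1.26 to 41.4 ± 0.439 CPM in 129 and from 121 ± 16.3 to 53.0 ± 1.59 CPM in B6J. L3mbtl3, a reader of methylated lysine that directs methylated DNMT1 to degradation, fell by 1.10 and 0.65 on the log2 scale. Ehmt1, whose product works with G9a, the methyltransferase that acts on LIG1, fell by 0.31 and 0.37. Cdca7l, the paralogue of Cdca7, fell by 0.77 and 0.94, and with the fibroblast covariate the values were -0.16 (adjusted p = 0.516) and -0.49. Zbtb24, a transcription factor that activates Cdca7, rose by 0.44 and 0.34, and omitting DMSO replicate 2 of B6J ended the B6J call (adjusted p = 0.0569). Hdac2 rose in both backgrounds and Hdac1 in B6J.

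Dppa3, whose product displaces UHRF1 from chromatin, moved in opposite directions. It rose from 10.6 ± 1.69 to 16.7 ± 2.58 CPM in 129 (log2 0.65, adjusted p = 0.00338) and fell from 57.2 ± 5.46 to 42.1 ± 2.63 CPM in B6J (-0.45, adjusted p = 0.0252). Omitting DMSO replicate 1 or inhibitor replicate 2 or 3 of B6J ended the B6J call (adjusted p = 0.0820 to 0.0886), and with the fibroblast covariate the values were 1.11 in 129 and -0.10 in B6J. The difference of the responses was -1.10 (adjusted p = 0.0187). B6J held more Dppa3 than 129 in both media, by 2.43 on the log2 scale with DMSO and 1.33 with inhibitor.

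Of 10 genes of the methyl donor cycle, which supplies S-adenosylmethionine, 2 rose and 2 fell in 129 (close to the shares of all genes) and 3 rose and 3 fell in B6J. Mat2a, which makes S-adenosylmethionine, rose by 0.27 and 0.31, and Ahcy, which clears the spent product, fell by 0.24 and 0.30. Of 18 genes of clamp loading and Okazaki fragment maturation, 3 rose and 2 fell in 129 and 3 rose and 1 fell in B6J. The rises are close to the shares of all genes, and the medians were 0.0047 and 0.029. Chtf18, Pold1 and Rnaseh2b rose in both backgrounds, and Pold3 fell in 129. Chtf18 rose by 0.62 in 129 and 0.46 in B6J, while Chtf8, which works with it in the same loader, fell by 0.30 and 0.28. Of 27 genes of S phase and E2F control, 10 rose and 3 fell in 129 and 8 rose and 1 fell in B6J, with medians of 0.09 and 0.18. E2f1 rose by 0.26 and 0.43 and Rrm2 by 0.37 and 0.32. Of 14 genes of G2 and M phase, 1, Bub1, fell in 129, and edgeR called 0 higher in 129 and 0 in either direction in B6J (0 at an unadjusted p under 0.05 and 0 by DESeq2 or limma-voom). Among 4 ligases and ubiquitin proteases related to the members, Usp47, the closest relative of Usp7, fell in both backgrounds, by 0.67 and 0.45, and Lig3 fell in 129.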

How the data were processed

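The authors deposited 1 table of raw read counts per gene for the 12 libraries (poly(A) RNA, TruSeq Stranded mRNA, NovaSeq 6000, per the labels' protocols). Tools listed in the submitters' processing notes are HTSeq 0.6.1p1, STAR 2.7.10, DESeq and SAMtools, with builds given as GRCm38 and mm10. Which annotation and strand setting were used, and how multi-mapping reads were counted, is not given in the sources used here. Of the deposited counts from 1 to 20, 70.1% to 73.4% were even in each library, so fits were repeated on halved counts.

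Counts were fitted with edgeR 4.0.16 (R 4.3.3): filterByExpr with a minimum count of 10 and a minimum total of 15, TMM scaling, and 1 quasi-likelihood fit of all 12 libraries with 4 group means. Each of 5 contrasts was adjusted by Benjamini-Hochberg over 16627 genes and called at an adjusted p under 0.05, with intervals at 95%. The method was tested on simulated data. CPM use TMM library sizes. Ratios were compared by two-sided exact permutation tests. Depth of 62634533 to 96341637 counts leaves the spread between libraries, not counting error, as the main limit.

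Alternatives were DESeq2 1.42.0, limma-voom (limma 3.58.1), RLE and upper quartile scaling, no filter, a minimum count of 50, halved counts, a replicate block, a fibroblast covariate, fits of the 2 groups compared and omission of libraries. Same-numbered libraries deviated together in 129 (correlations 0.559, 0.575 and 0.456 over 10768 genes), and in B6J only those numbered 2 did (-0.485, 0.487 and -0.522). The 129 numbers were therefore taken as pairs in a separate 129 fit. That pairing was read from these same data, where replicate 1 stood apart in both 129 groups, and the labels do not state it. A replicate block over all groups was kept as an alternative. All 8 members are named. Of the other lists, genes were named if called or among the 2 largest changes with a mean of 5 CPM or more, and the 3 nearest profiles of each member were taken among genes with a mean of 5 CPM or more in every group. The members and lists were chosen with earlier results of these data known.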

Additional observations from a re-analysis of the deposited data

Results flagged for a closer look

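The response to the MEK inhibitor differed between the backgrounds for 4 of the 144 genes examined (2.78%, against 1.48% of all genes tested), by the edgeR term for the difference of the 2 responses (B6J minus 129). For Uhrf2 the difference was 0.57 on the log2 scale (adjusted p = 0.0450), from a response of -0.77 in 129 and -0.20 in B6J, and all 3 inhibitor libraries lay below the DMSO libraries in 129 only. The Uhrf2 call was lost in 15 of 24 alternatives, with adjusted p up to 0.127. For Dppa3 it was -1.10 (adjusted p = 0.0187), and the call was lost in 4 of 24 alternatives, among them the omission of replicate 2 of 129 with DMSO, replicate 1 of B6J with DMSO or replicate 2 of B6J with inhibitor. Mthfd1, a folate enzyme that feeds the methyl donor cycle, differed by -0.47 (adjusted p = 0.0411), with responses of 0.17 in 129 and -0.30 in B6J. That call was lost in 14 of 24 alternatives, with adjusted p up to 0.118. Ccne1, the S-phase cyclin E1, differed by -0.59 (adjusted p = 0.0317), having risen in 129 (0.26, adjusted p = 0.0280) and fallen in B6J (-0.34, adjusted p = 0.00808), and the call was lost in 10 of 24 alternatives. The causes of these differences were not tested.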

How the results depend on the processing

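Uhrf1 kept its call and direction in 26 alternatives in 129 (0.51 to 0.73) and 25 in B6J (0.57 to 0.75), as did Uhrf2 in 129 (-0.82 to -0.59) and, between backgrounds with DMSO, in 25 alternatives. Cdca7 between backgrounds with inhibitor kept its call in 25 alternatives, and Pcna there lost it only when summed with Pcna-ps2. All alternatives start from the same deposited counts. The part of alignment to a reference genome in the background differences was therefore not tested. The causes of the changes below were not tested.

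Members called were 2, 3, 1, 3 and 3 of 8 in the response of 129, the response of B6J, the difference of responses, and the background difference with DMSO and with inhibitor. With 1 library left out they ranged from 2 to 4, 1 to 4, 0 to 1, 1 to 3 and 2 to 4. Without the 4 libraries that stood apart (chosen after seeing the data, as were the summed Pcna, the omission of the 2 odd B6J libraries and the block in 129 alone) they were 5, 5, 2, 4 and 5. Calls over all genes rose there as well, to 2059 in the difference of responses and to 6493 and 5757 between backgrounds with DMSO and with inhibitor. Without both 129 libraries numbered 1, 5 were called in B6J and 0 in the difference of responses, which was also 0 with upper quartile scaling, limma-voom, the replicate block and without the 2 odd B6J libraries. Between backgrounds with DMSO, 1 was called in a fit of the 2 groups and without the 2 odd B6J libraries and 5 with the fibroblast covariate, which also gave 5 with inhibitor.

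Over all genes, the response was called for 5930 genes in 129 and 5166 in B6J with the main settings. In the alternatives it was called for 4590 to 8590 genes in 129 and 3743 to 7583 in B6J. The difference of responses was called for 246 with the main settings. It was called for 800 by DESeq2, 163 by limma-voom, 156 with the replicate block, 608 without both 129 libraries numbered 1, 824 with the fibroblast covariate, 80 without the 2 odd B6J libraries, 2059 without 4 libraries and 73 to 586 with 1 library left out. Background differences with DMSO went from 3468 to 2247 in a fit of the 2 groups and 6493 without 4 libraries, and with inhibitor from 3053 to 5757 without 4 libraries.

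In the fit of all groups with the replicate block, Lig1 in B6J (0.26, adjusted p = 0.0538), the difference of the Uhrf2 responses (0.57, adjusted p = 0.0980) and Uhrf1 between backgrounds with inhibitor (0.25, adjusted p = 0.0830) were no longer called, and no other member changed its call. The block in the 129 groups alone changed the call of Hells only.

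Some values changed sign. In 129, the fibroblast covariate gave 0.27 for Hells and 0.26 for Cdca7, and Lig1 was -0.0036 in the fit of 2 groups and -0.0042 with the block in 129 alone. In B6J, Cdca7 was 0.21 with the fibroblast covariate, 0.090 without the 2 odd libraries and 0.083 without 4 libraries. The difference of responses was -0.011 for Dnmt1 and -0.026 for Usp7 without both 129 libraries numbered 1, -0.031 for Usp7 and -0.00045 for Cdca7 with upper quartile scaling, and -0.067 and -0.050 for these with the fibroblast covariate. Between backgrounds with DMSO, Hells was 0.0016 without the 2 odd B6J libraries, Lig1 0.040 with the fibroblast covariate and Pcna -0.017 when summed with Pcna-ps2. With inhibitor, Uhrf2 was -0.0058 with upper quartile scaling, -0.0047 by limma-voom, -6.64e-05 without a filter, -0.0028 at a minimum count of 50 and -0.048 without both 129 libraries numbered 1.

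With 1 library left out, the response in 129 ranged from -0.0015 to 0.17 for Dnmt1, -0.15 to 0.020 for Cdca7 and -0.050 to 0.061 for Lig1, and that in B6J from -0.071 to 0.55 for Hells and -0.071 to 0.066 for Cdca7. The difference of responses ranged from -0.072 to 0.076 for Usp7 and -0.038 to 0.13 for Cdca7. Background differences ranged from -0.55 to 0.0050 for Hells and -0.12 to 0.016 for Lig1 with DMSO, and from -0.071 to 0.073 for Uhrf2 and -0.16 to 0.41 for Hells with inhibitor. The log2 ratio of Hells to Cdca7 ranged from -0.23 to 0.66 in B6J and from -0.61 to 0.0027 between backgrounds with inhibitor.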
